A study of Mus musculus with 6 samples.

Results

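The 10 genes described here encode the precursors of neuropeptides made in the hippocampus: Sst, Npy, Cck, Penk, Pdyn, Tac2, Vip, Crh, Cort and Pnoc. They were chosen by symbol, and each symbol matched 1 Ensembl identifier among the 56941 genes of the deposited table. All 10 passed the filter on low counts, as did 19354 genes in all. Poly(A) RNA was sequenced from the ventral hippocampus of 6 mice, 3 with the genotype label NEGR1_overexpression and 3 labelled NEGR1_control. NEGR1 is an adhesion molecule of the neuronal surface, and the study asked how its excess bears on working memory and on anxiety-like and depression-like behaviour. The sources used here do not give the means of overexpression, the strain or the age of the mice.

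Neuropeptides are cut from longer precursors at pairs of basic residues, packed into dense core vesicles and released to act on G protein-coupled receptors. In the hippocampus most of these genes are known as products of GABA-releasing interneurons. Sst marks cells that contact distal dendrites, Vip marks cells that contact other interneurons, and Npy and Cck mark further classes. Pdyn and, in part, Penk are also made by granule cells of the dentate gyrus, and Cck by pyramidal cells. Because whole tissue was sequenced, fewer cells of a type and less RNA per cell cannot be told apart.

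The libraries held 30726110 to 38108394 counts. Negr1 itself was at 193 ± 6.88 CPM with overexpression and 176 ± 7.28 CPM in controls (SD, n = 3 each). This 1.09-fold difference (95% interval 1.01 to 1.19) did not pass edgeR's quasi-likelihood test (adjusted p = 0.488). Every overexpression library lay above every control library for Negr1, as for 7.07% of tested genes. Overexpression replicate 1 stood apart from the others in its choroid plexus transcripts. It held 640 CPM of the choroid plexus gene Ttr, against 3.08 to 38.3 CPM in the other 5 libraries, and the lowest level of dentate granule cell markers of the 6. Levels are given as CPM, that is counts scaled to library size with TMM factors, and means carry their SD over the 3 mice of a group. Fold changes divide overexpression by control. A gene is called when its p from edgeR's quasi-likelihood test is under 0.05 after Benjamini-Hochberg adjustment across every tested gene.

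None of the 10 neuropeptide genes was called, that is 0 of 10, where 0.0465% of all tested genes were, 0.0258% higher and 0.0207% lower. DESeq2's Wald test called 0 of them too. By edgeR's unadjusted p under 0.05, 2 of the 10 differed, Pdyn (higher) and Cck (lower), where 9.24% of all tested genes did. Groups did not overlap for Crh, higher in every overexpression library, where this held for 7.07% of tested genes. They did not overlap for Npy and Cck, lower in every overexpression library, where this held for 8.07% of tested genes. The median log2 fold change of the 10 was -0.029, against 0.0015 over all tested genes, with 4 above 0 and 6 below.

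**Figure D1:**
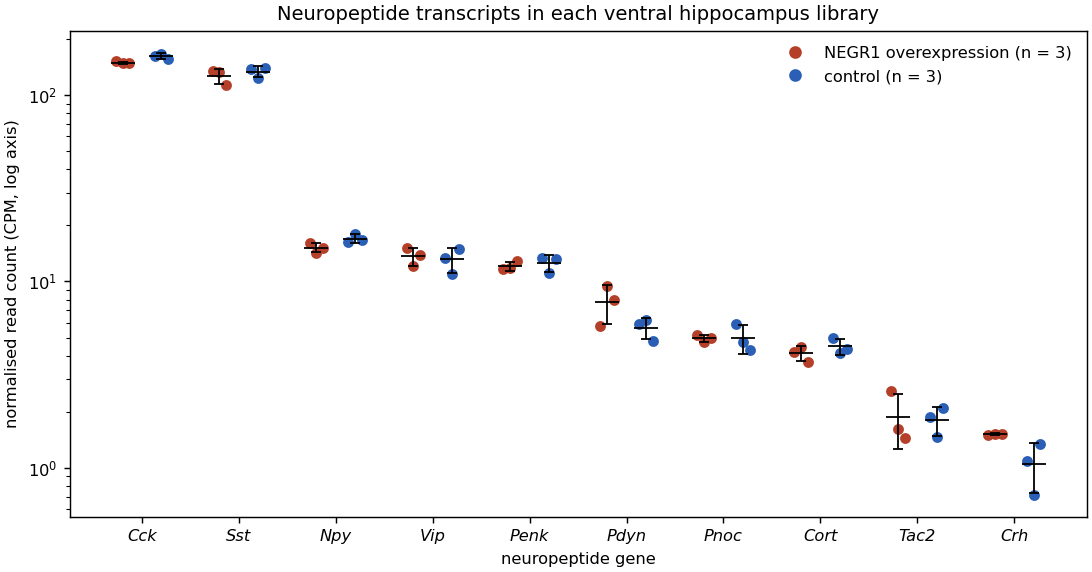
Normalised read count (CPM, log axis) of each neuropeptide gene in each library, with overexpression libraries left of control libraries. Horizontal marks are group means and error bars are SD (n = 3 per group). The groups do not overlap for Crh, Npy and Cck, and Crh spans 1.49 to 1.53 CPM in overexpression and 0.718 to 1.34 CPM in control libraries.

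The 10 genes covered a wide span of levels, which set how precisely each was measured. Per kilobase of exon, averaged over the 6 libraries, Sst was highest at 181 CPM per kb, then Cck at 119 and Npy at 28.4. Penk followed at 7.55 CPM per kb, then Cort at 6.34, Vip at 3.94, Pdyn at 2.32, Pnoc at 2.30, Tac2 at 1.34 and Crh at 0.971. Neighbours in that order overlapped in range over the 6 libraries for Penk and Cort, Vip and Pdyn, Pdyn and Pnoc, and Tac2 and Crh. Lengths were exon unions of GENCODE M21, which may differ from the annotation used for counting. Counts per library were 4760 to 6281 for Cck and 27 to 55 for Crh. At the mean count of the 6 libraries, counting error alone therefore gave a coefficient of variation of 1.38% for Cck and 15.2% for Crh.

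Sst encodes somatostatin and Cort cortistatin, close relatives that act on the same receptors. Both were close to the control level. Sst stood at 134, 133 and 113 CPM in the overexpression libraries and at 137, 123 and 140 CPM in the control libraries. The groups overlapped, and the lowest value was that of overexpression replicate 3. The fold change was 0.949, with a 95% interval of 0.852 to 1.06 (adjusted p = 0.791). The within-group spread of Sst was larger than that of 87.7% of the 1767 genes of like level (within 1.5-fold), whereas counting error was 1.51%. Cort stood at 4.21, 4.44 and 3.69 CPM in overexpression and at 4.98, 4.12 and 4.33 CPM in control libraries, and the groups overlapped. Its fold change was 0.919 (95% interval 0.733 to 1.15, adjusted p = 0.851).

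The mature peptides of these genes are coded at the end of each coding sequence. The last 14 codons before the stop are shown to see how alike the 2 genes are where their peptides match. They are read from GENCODE M21 transcripts (GRCm38; Sst on chromosome 16, Cort on chromosome 4), and capitals mark the aligned stretch.
Sst: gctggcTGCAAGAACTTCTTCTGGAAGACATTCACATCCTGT
Cort: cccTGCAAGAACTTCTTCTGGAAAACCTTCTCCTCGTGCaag
Of the 36 aligned bases 30 were identical (83.3%), over 12 codons. The longest run that the whole coding sequences share exactly was 21 bases.

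Npy encodes neuropeptide Y, an inhibitory peptide of several interneuron classes. It stood at 16.1, 14.3 and 15.2 CPM in the overexpression libraries and at 16.2, 18.0 and 16.8 CPM in the control libraries. All 3 overexpression values lay below the 3 control values, and overexpression replicate 1 was close to control replicate 1. Npy averaged 15.2 ± 0.890 CPM with overexpression and 16.99 ± 0.908 CPM in controls, a 0.894-fold level (95% interval 0.787 to 1.02). The log2 difference of -0.16 ± 0.086 (SE) did not pass edgeR's test (adjusted p = 0.597).

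Cck encodes cholecystokinin, a peptide of basket cells and of pyramidal neurons. It had the smallest spread of the 10 genes. Cck stood at 151, 148 and 148 CPM in the overexpression libraries and at 163, 167 and 156 CPM in the control libraries. The groups did not overlap. The means were 149 ± 2.11 CPM with overexpression and 162 ± 5.52 CPM in controls, a 0.920-fold level with a 95% interval of 0.852 to 0.993. Cck was not called (adjusted p = 0.497 by edgeR). Relative to the summed level of the GABA neuron genes Gad1, Gad2 and Slc32a1 in the same library, a scaling chosen after seeing the data, Cck was at 31.1 ± 1.98% in overexpression and 35.2 ± 1.23% in control libraries. Npy on that scale was at 3.17 ± 0.211% in overexpression and 3.69 ± 0.103% in control libraries. The groups did not overlap for either gene, where on this scale 12.2% of all tested genes were lower in every overexpression library and 2.34% higher.

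Vip, vasoactive intestinal peptide, did not differ detectably. It stood at 15.1, 12.0 and 13.9 CPM in the overexpression libraries and at 13.4, 11.0 and 14.95 CPM in the control libraries, with groups that overlapped. The log2 fold change was 0.062 (95% interval -0.20 to 0.32, adjusted p = 0.913), and its sign depended on single libraries: the log2 fold change was -0.013 without overexpression replicate 1 and -0.054 without control replicate 2. Tac2 encodes neurokinin B, a tachykinin. It stood at 2.60, 1.61 and 1.44 CPM in the overexpression libraries and at 1.87, 1.46 and 2.10 CPM in the control libraries. Overexpression replicate 1 was the highest of the 6 and overexpression replicate 3 the lowest. The fold change was 1.04 (95% interval 0.712 to 1.52, adjusted p = 0.968). Without overexpression replicate 1 its log2 fold change was -0.24 (adjusted p = 0.765), and without control replicate 2 it was -0.079.

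Tac2 is strongly expressed in the medial habenula, a region beside the hippocampus, so markers of that region were read beside it. Of the 18 genes of the medial habenula and thalamus list, which holds Tac2 itself, 15 were tested and 0 were called, and 0 were at 0 counts in all libraries. The summed level was 230 to 267 CPM in overexpression and 214 to 235 CPM in control libraries. Among habenula genes on the list, Pou4f1 had 0 to 5 counts a library, Chrnb4 2 to 10 and Irx2 0 to 7, whereas Gng8 had 16 to 45, Chrna3 31 to 61 and Nwd2 1374 to 1955. Tac2 itself had 52 to 87 counts. The part of this list in the Tac2 values was not tested.

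The opioid precursors are Penk (proenkephalin), Pdyn (prodynorphin) and Pnoc (prepronociceptin). Their peptides share a core that begins with tyrosine, or with phenylalanine in nociceptin, followed by 2 glycines and a phenylalanine. In the coding sequences this tyrosine core occurred 7 times in Penk, 3 times in Pdyn and 0 times in Pnoc, and the phenylalanine form 1 time in Pnoc. Copies 2 and 3 of Pdyn, counted from the start codon, and the Pnoc copy are shown as 27 bases each, because Pdyn had the smallest p of the 10 genes. Capitals mark the codons of the core, and each copy shown follows a pair of codons for basic residues.
Pdyn copy 2: TATGGGGGCTTCctgcggcgcattcgc
Pdyn copy 3: TATGGTGGTTTCctgcggcgtcagttc
Pnoc: TTTGGGGGCTTCaccggggcccggaaa
Pdyn lies on chromosome 2 and Pnoc on chromosome 14 (GRCm38).

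Pdyn stood at 5.79, 9.47 and 7.99 CPM in the overexpression libraries and at 5.89, 6.20 and 4.82 CPM in the control libraries. Overexpression replicates 2 and 3 lay above all controls, and overexpression replicate 1 lay below control replicates 1 and 2. The means were 7.75 ± 1.85 CPM with overexpression and 5.63 ± 0.722 CPM in controls. The fold change was 1.37, with a 95% interval of 1.06 to 1.77, and the log2 fold change 0.46 ± 0.17 (SE). Pdyn was not called (adjusted p = 0.456 in edgeR's test). Its spread within groups was larger than that of 92.0% of the 2080 genes of like level. Without overexpression replicate 1, the lowest overexpression library for Pdyn, the log2 fold change was 0.63 (adjusted p = 0.0957). Without overexpression replicate 2, the highest, it was 0.29 (adjusted p = 0.619). Leaving out the lowest or the highest overexpression library raises or lowers this value by construction, so neither is support for a difference.

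The level of dentate granule cell markers moved with Pdyn across libraries. Pdyn is known from the mossy fibres of these cells. All 14 genes of the marker list were tested, 0 were called and 0 were at 0 counts, with 13 log2 fold changes above 0 and a median of 0.24. Their summed level was 408, 710 and 636 CPM in the overexpression libraries and 498, 530 and 469 CPM in the control libraries. Prox1, the transcription factor that sets granule cell identity, was at 68.2, 137 and 123 CPM in overexpression and at 95.6, 112 and 86.4 CPM in control libraries (adjusted p = 0.918). Pdzd2 and Tdo2 had the smallest p of the list, at 81.1 ± 10.3 against 68.4 ± 4.16 CPM and at 3.58 ± 1.16 against 2.46 ± 0.404 CPM, overexpression against control. For the list, overexpression replicate 1 was the lowest and overexpression replicate 2 the highest of the 6 libraries. For Pdyn, overexpression replicate 2 was also the highest and control replicate 3 the lowest. Without overexpression replicate 1, 3 of the 14 markers were called and their median was 0.50, and without overexpression replicate 2 none was and it was 0.044. Leaving out the lowest or the highest library of the list raises or lowers the overexpression level by construction, so these values are not support for a difference. Calls over all genes with each library left out are given at the end as a range.

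Pdyn was therefore also expressed as a percentage of the summed marker level of the same library, a scaling chosen after seeing the data. It was 1.42, 1.33 and 1.26% in the overexpression libraries and 1.18, 1.17 and 1.03% in the control libraries. On this scale the groups did not overlap, with means of 1.34 ± 0.0811% in overexpression and 1.13 ± 0.0858% in control libraries, a difference of 0.25 between the group means of the log2 percentages. The same difference for log2 CPM, before scaling, was 0.44. On this scale 0.594% of all tested genes had every overexpression library above every control library. No test was run on this ratio, and the part of the marker level in the Pdyn values was not tested.

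**Figure D2:**
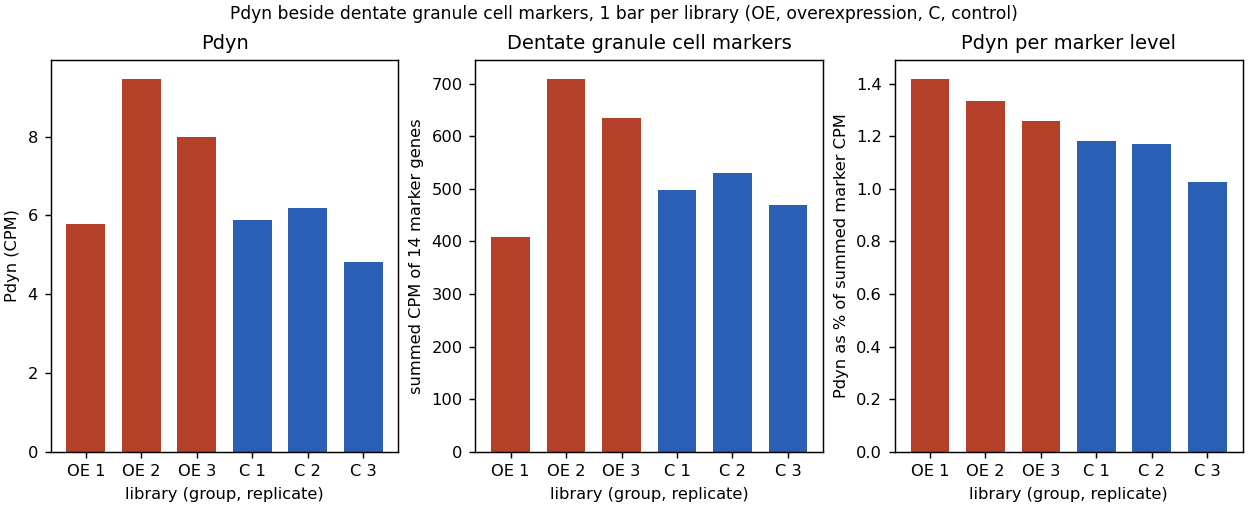
Pdyn (CPM), the summed CPM of 14 dentate granule cell markers, and Pdyn as a percentage of that sum, with 1 bar per library (OE, overexpression, then C, control, with the replicate number). Overexpression replicate 1 has 408 CPM of the markers and 5.79 CPM of Pdyn, and the percentage is 1.26 to 1.42 in overexpression and 1.03 to 1.18 in control libraries.

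Penk stood at 11.6, 11.8 and 12.9 CPM in the overexpression libraries and at 13.4, 11.1 and 13.2 CPM in the control libraries. The groups overlapped and the fold change was 0.963 (95% interval 0.827 to 1.12, adjusted p = 0.91). A noncoding gene on the opposite strand, A830012C17Rik, overlaps the exons of Penk in GENCODE M21 and had 1 count over all 6 libraries. Penk is abundant in the striatum and amygdala, which lie near the ventral hippocampus. Of 15 genes on the list for those regions 12 were tested, 0 were called and 0 were at 0 counts, at a summed level of 255 to 282 CPM in overexpression and 250 to 259 CPM in control libraries. The defining genes Six3 and Isl1 were near 0, at 1 to 13 and 0 to 4 counts a library. Pnoc stood at 5.16, 4.71 and 4.99 CPM in the overexpression libraries and at 5.92, 4.71 and 4.26 CPM in the control libraries. Its fold change was 0.998 (95% interval 0.797 to 1.2498, adjusted p = 0.998). The control libraries spread more widely than the overexpression libraries. The log2 fold change, -0.0026 with all libraries, was 0.032 without overexpression replicate 2 and 0.14 without control replicate 1.

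Crh encodes corticotropin-releasing hormone, the peptide that starts the hormonal stress response in the hypothalamus and that hippocampal interneurons also make. It was the scarcest of the 10 genes. Crh stood at 1.49, 1.52 and 1.53 CPM in the overexpression libraries and at 1.09, 0.718 and 1.34 CPM in the control libraries, from 50, 52 and 55 counts and 35, 27 and 41 counts. All 3 overexpression values lay above the 3 control values. The means were 1.51 ± 0.0185 CPM with overexpression and 1.05 ± 0.315 CPM in controls, a 1.45-fold level with a 95% interval of 0.981 to 2.15. The log2 fold change of 0.54 ± 0.26 (SE) did not pass edgeR's test (adjusted p = 0.564). The overexpression values varied by 1.22% of their mean, less than the 15.2% that counting error gives at the mean count of all 6 libraries. Their closeness is therefore not a measure of how alike the mice were. The log2 fold change was 0.31 without control replicate 2 and 0.75 without control replicate 3. Per Gad1, Gad2 and Slc32a1 the Crh groups overlapped, at 0.287 to 0.342% in overexpression and 0.152 to 0.292% in control libraries. Among peptide genes that mark the hypothalamus, Avp (vasopressin) had 11, 6 and 7 counts in the overexpression libraries and 6, 0 and 1 in the control libraries. Oxt (oxytocin) had 11, 4 and 0 counts in the overexpression libraries and 1, 0 and 1 in the control libraries. Other hypothalamic peptide genes did not share that lean. In overexpression and then control libraries, Pmch had 9, 4 and 3 against 5, 3 and 7 counts. Hcrt had 1, 3 and 4 against 2, 0 and 6, and Ghrh 2, 3 and 4 against 0, 6 and 2. Pomc had 17, 22 and 16 against 23, 21 and 10. The groups overlapped in CPM for all of these genes, Avp and Oxt included. Only Pomc among them passed the filter on low counts, and their part in the Crh values was not tested.

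**Figure D3:**
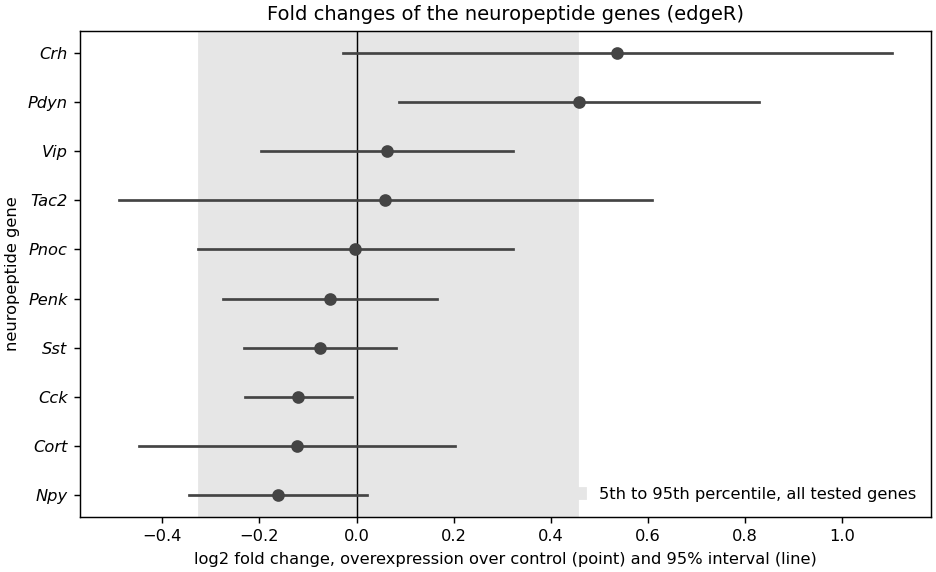
Log2 fold change of each neuropeptide gene, overexpression over control (points), with the 95% interval of edgeR's fit (lines, n = 3 per group). The grey band spans the 5th to 95th percentile of all tested genes (-0.32 to 0.46); Crh at 0.54 and Pdyn at 0.46 are the highest, and the intervals of Pdyn and Cck do not reach 0.

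Markers of GABA neurons, the cells that make several of these peptides, had overlapping levels in the 2 groups. Summed Gad1, Gad2 and Slc32a1 were at 519, 476 and 446 CPM in the overexpression libraries and at 447, 472 and 460 CPM in the control libraries. Of 33 interneuron markers 31 were tested and 0 were called, with a median log2 fold change of 0.028. The smallest p belonged to Dlx6os1, a noncoding RNA of the GABA lineage, at 25.64 ± 2.7003 CPM with overexpression and 22.3 ± 1.15 CPM in controls (adjusted p = 0.492), and next to Kit, a receptor kinase, at 153 ± 8.46 and 164 ± 10.01 CPM in that order of groups. Without overexpression replicate 1, 1 of the 31 was called, as were 3 dentate granule markers and 1 cortex layer marker. Prox1 is on both the interneuron and dentate lists and Calb1 on both the interneuron and cortex lists. Whether the called gene is among these shared genes is not given here. The call is not read as a change of interneurons, and its cause was not tested. Calls over all genes with each library left out are given at the end as a range. Relative to the 3 GABA genes, the groups overlapped for the 8 neuropeptide genes other than Npy and Cck.

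Receptors for these peptides were not called either, with 0 of 21 tested of 24 listed, 10 log2 fold changes above 0 and a median of -0.0047. Groups did not overlap for 4 of the 21, all lower in overexpression, where 8.07% of all tested genes were. These were Vipr1, Sstr2, Crhr1 and Crhbp. Vipr1, a receptor for vasoactive intestinal peptide, was at 26.5 ± 0.329 CPM with overexpression and 31.4 ± 3.62 CPM in controls (adjusted p = 0.402). Sstr2, a somatostatin receptor, was at 8.28 ± 0.490 CPM with overexpression and 9.89 ± 0.155 CPM in controls (adjusted p = 0.476). Crhr1, the main receptor for Crh in brain, was at 9.89 ± 0.768 CPM with overexpression and 11.8 ± 0.439 CPM in controls (adjusted p = 0.467). Crhbp, a secreted protein that binds the Crh peptide, was at 21.1 ± 1.98 CPM with overexpression and 24.5 ± 1.39 CPM in controls (adjusted p = 0.467).

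The receptor with the smallest p was Vipr2, the second receptor for vasoactive intestinal peptide. It stood at 1.34, 0.702 and 1.78 CPM in the overexpression libraries and at 0.716, 0.266 and 0.459 CPM in the control libraries. The groups overlapped, since overexpression replicate 2 lay just below control replicate 1. Its fold change was 2.68 (95% interval 1.45 to 4.94, adjusted p = 0.34), and it was called only when no filter on low counts was used (adjusted p = 0.00643). P-values of edgeR's fit with no filter treat the spread between samples as known exactly, which limits every call of that fit. The kappa receptor Oprk1, on which dynorphin acts, stood at 3.97, 2.98 and 2.27 CPM in the overexpression libraries and at 2.12, 2.37 and 2.49 CPM in the control libraries (adjusted p = 0.6). Npy1r, a receptor for neuropeptide Y, was at 33.1 ± 3.29 CPM with overexpression and 28.9 ± 3.29 CPM in controls (adjusted p = 0.542), and Cckbr, the brain receptor for cholecystokinin, at 8.77 ± 3.13 and 8.75 ± 1.34 CPM in that order of groups (adjusted p = 0.998).

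Among 38 other neuropeptide and peptide hormone genes, 22 were tested and 0 called, with a median log2 fold change of 0.013. The smallest p belonged to Grp, gastrin-releasing peptide, and Edn3, an endothelin. Grp was at 18.4, 18.98 and 17.5 CPM in the overexpression libraries and at 15.95, 13.99 and 16.9 CPM in the control libraries, with groups that did not overlap (1.17-fold, 95% interval 1.03 to 1.34, adjusted p = 0.46). Edn3 was at 6.37 ± 0.446 CPM with overexpression and 4.80 ± 1.36 CPM in controls (adjusted p = 0.512). The neuropeptide genes Pyy and Iapp had 0 counts in all 6 libraries.

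Genes that process and store peptides were not called by edgeR with its default filter. At an unadjusted p under 0.05 by edgeR, 3 of 11 tested processing genes were lower and 0 higher. Of 18 dense core vesicle genes 5 were lower and 1 higher. General neuron markers had a like share, with 3 of 12 lower and 0 higher. Over all tested genes 4.6% were lower and 4.64% higher. Chgb, a granin of the vesicle core, stood at 472, 453 and 513 CPM in the overexpression libraries and at 589, 704 and 548 CPM in the control libraries. The groups did not overlap, at 0.781-fold (95% interval 0.681 to 0.896). It was not called by edgeR with the default filter (adjusted p = 0.299). It was called by DESeq2's Wald test (adjusted p = 0.00736) and by edgeR with no filter on low counts (adjusted p = 3.01e-07), with the limit of that fit given above. Chgb is also on the list of CA pyramidal cell markers, which had 10 of 12 log2 fold changes below 0 and a median of -0.086. Chga, the related granin, was at 95.9 ± 5.89 CPM with overexpression and 108 ± 3.45 CPM in controls (adjusted p = 0.423).

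Scg5, a chaperone of the precursor convertase Pcsk2, was at 115 ± 5.64 CPM with overexpression and 129 ± 5.40 CPM in controls (adjusted p = 0.401). Pcsk2 was at 235 ± 0.872 CPM with overexpression and 259 ± 21.8 CPM in controls (adjusted p = 0.5), and Pcsk6, another of the family, at 23.9 ± 2.11 and 27.1 ± 0.638 CPM in that order of groups (adjusted p = 0.494). Cpe, the carboxypeptidase that trims the cut ends, was at 2320 ± 25.1 CPM with overexpression and 2329 ± 71.5 CPM in controls. Of 12 peptide-degrading enzymes 12 were tested and 0 called. Mme, the membrane enzyme neprilysin, was at 7.41 ± 0.634 CPM with overexpression and 5.93 ± 0.601 CPM in controls (adjusted p = 0.467). Ece1, an endothelin-converting enzyme, was at 45.2 ± 3.04 CPM with overexpression and 49.99 ± 1.73 CPM in controls (adjusted p = 0.513). General neuron markers had 11 of 12 log2 fold changes below 0 and a median of -0.081, and their part in these values was not tested.

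**Figure D4:**
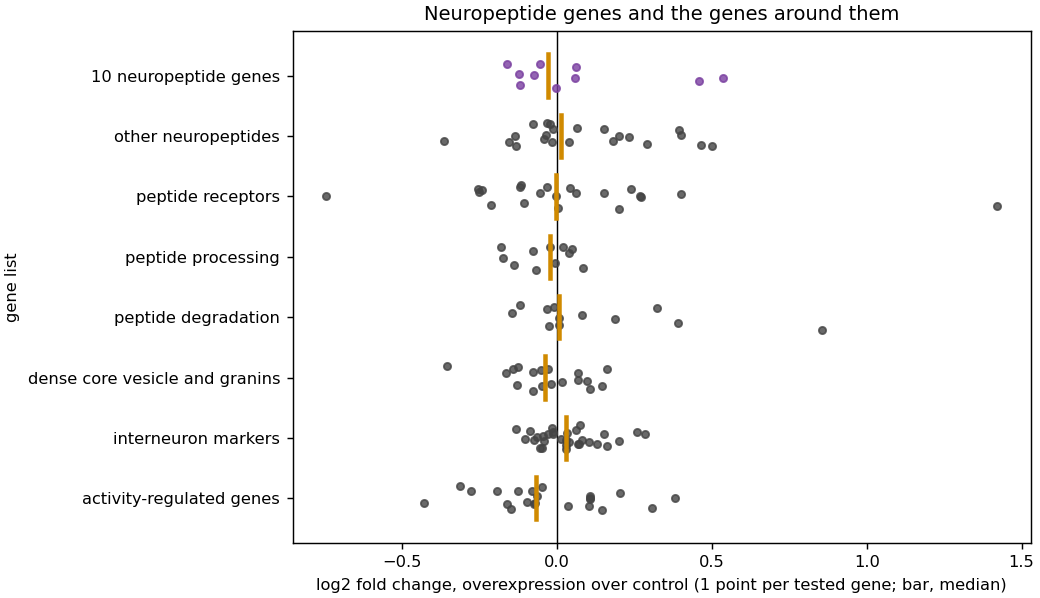
Log2 fold change, overexpression over control, of every tested gene in each list (1 point per gene, bar at the median, vertical scatter without meaning). The 10 neuropeptide genes have a median of -0.029, the peptide receptors -0.0047, the dense core vesicle genes -0.039 and the interneuron markers 0.028. Chgb at -0.36 and Vipr2 at 1.42 lie far from the medians of their lists.

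Several peptide genes are textbook targets of the activity-regulated factor CREB, first studied on the somatostatin promoter. The 250 bases before the start of each gene were searched for TGACG or its reverse complement CGTCA, on either strand, in RefSeq promoters (GRCm38.p6). A window was at hand for 7 of the 10 genes, and Sst, Cck, Vip and Cort held the letters, which 17.8% of all 32851 windows did. Sst alone held the full palindrome TGACGTCA, in which TGACG and CGTCA overlap, as did 1.55% of windows. The 120 bases before each of these 4 starts are shown, on the strand of the gene, with the matched letters in capitals.
Sst: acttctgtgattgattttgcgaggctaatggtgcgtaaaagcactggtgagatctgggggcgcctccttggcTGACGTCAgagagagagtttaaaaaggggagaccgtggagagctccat
Cck: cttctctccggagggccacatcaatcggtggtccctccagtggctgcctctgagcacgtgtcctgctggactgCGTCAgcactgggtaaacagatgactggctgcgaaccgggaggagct
Vip: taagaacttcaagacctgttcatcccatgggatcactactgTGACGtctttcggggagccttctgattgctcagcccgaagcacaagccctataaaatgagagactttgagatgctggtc
Cort: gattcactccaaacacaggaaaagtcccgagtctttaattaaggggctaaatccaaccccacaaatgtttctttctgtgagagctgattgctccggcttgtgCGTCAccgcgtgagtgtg
They lie at chr16:23890845-23890964 (minus strand), chr9:121495695-121495814 (minus), chr10:5639098-5639217 (plus) and chr4:149126764-149126883 (minus). The first matched base was 48 bases before the start in Sst, 47 in Cck, 79 in Vip and 18 in Cort. A match describes the letters only.

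Log2 fold changes of the 4 genes with these letters were -0.075 for Sst, -0.12 for Cck, 0.062 for Vip and -0.12 for Cort, and those of Npy, Pdyn and Tac2, whose windows lacked them, were -0.16, 0.46 and 0.059. Activity-regulated genes varied among the overexpression libraries. Of 22 tested 0 were called by edgeR, and their mean log2 deviation from the 6-library mean was -0.25, -0.18 and 0.34 in overexpression replicates 1, 2 and 3, against 0.043, 0.038 and 0.012 in control replicates 1, 2 and 3. Egr1, an immediate early transcription factor, was at 81.0 ± 14.9 CPM with overexpression and 109 ± 10.8 CPM in controls (adjusted p = 0.456 by edgeR, 4.91e-05 by edgeR with no filter, 0.0167 by DESeq2), and Egr4 at 12.3 ± 2.34 and 15.3 ± 0.215 CPM in that order of groups. Overexpression replicate 3 was the highest library on this list. Of the genes with the letters, it was the lowest of the 6 libraries for Sst and Cort and not for Cck and Vip, and of those without, it was the lowest for Tac2 and not for Npy and Pdyn. The part of the activity genes in the peptide values was not tested.

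Markers of other cells in the dissected tissue also differed in level between libraries, with 0 called on any list by edgeR with the default filter and all 6 libraries. Oligodendrocyte markers summed to 3194 to 3777 CPM in overexpression and 3981 to 5030 CPM in control libraries, with 12 of 12 log2 fold changes below 0 and a median of -0.35. DESeq2 called 5 oligodendrocyte, 2 meningeal, 2 choroid plexus and 1 medial habenula and thalamus gene, where it called 103 of 19735 genes in all. Meningeal fibroblast markers had 11 of 11 above 0 and a median of 0.58. Choroid plexus markers had a median of 2.53 with all libraries and 0.43 without overexpression replicate 1. Medians were 0.15 for the medial habenula and thalamus list, 0.19 for striatum and amygdala, 0.14 for subiculum and ventral pyramidal cells and 0.035 for cortex layers. The genes with the 2 smallest p on each list, Chgb aside, were Mbp and Mag (oligodendrocytes), Col1a1 and Col1a2 (fibroblasts), Trpm3 and Otx2 (choroid plexus), Zic1 and Synpo2 (habenula and thalamus), Foxp2 and Drd2 (striatum), Etv1 and Coch (subiculum), Foxp2 and Rorb (cortex), Neurod6 (CA pyramidal cells, after Chgb), and Thy1 and Slc17a7 (neurons). Mbp, a myelin protein, was at 1492 ± 121 CPM with overexpression and 2030 ± 220.3 CPM in controls (adjusted p = 0.15 by edgeR, 3.37e-05 by DESeq2). Zic1, a transcription factor, was at 14.7 ± 1.45 CPM with overexpression and 10.1 ± 1.27 CPM in controls (adjusted p = 0.149 by edgeR, 0.000121 by edgeR with no filter and 0.0119 by DESeq2). Col1a2, a collagen, was called by edgeR with no filter, by DESeq2 and without control replicate 1. Its adjusted p in the fit with the replicate number as a block was 0.00473. Without control replicate 1, 5 oligodendrocyte genes were called too, and calls over all genes with each library left out are given at the end as a range. The part of these markers in the neuropeptide values was not tested.

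The 3 genes with the widest spread over the 6 libraries were Pdyn, Crh and Tac2, with an SD of log2 CPM of 0.33, 0.29 and 0.26. For each, the tested genes of at least 1 CPM with the most similar pattern were found by the root mean square difference of centred log2 CPM over the 6 libraries. Nearest to Pdyn were Gm48482 (0.068), P2ry6 (0.077) and Capn3 (0.078). Nearest to Crh were Ifitm3 (0.064), 4930431P19Rik (0.074) and Etnppl (0.087). Nearest to Tac2 were Gsg1l (0.043), Gng4 (0.050) and Gm2136 (0.058). Like Tac2, Gsg1l was highest in overexpression replicate 1, at 46.6 CPM, and lay at 27.5 to 37.5 CPM in the other 5 libraries.

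**Figure D5:**
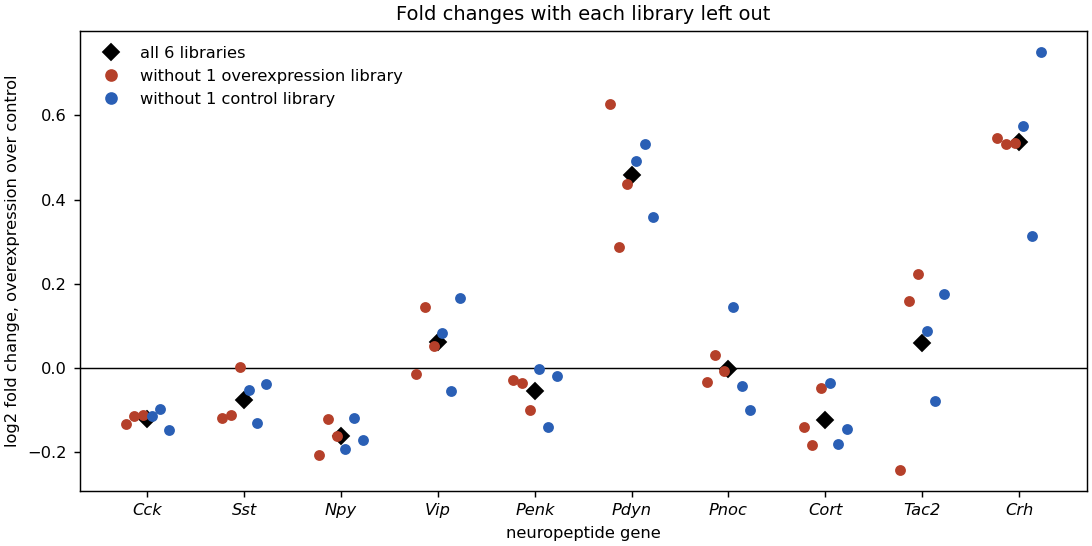
Log2 fold change, overexpression over control, of each neuropeptide gene with all 6 libraries (diamonds) and with 1 library left out (circles, coloured by the group that lost a library). Pdyn spans 0.29 to 0.63 and Crh 0.31 to 0.75, Cck and Npy stay below 0, and Tac2 spans -0.24 to 0.22.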

How the data were processed

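Total RNA of ventral hippocampus was taken with Trizol, selected for poly(A) and made into dUTP strand-marked libraries, per the labels' protocols. The authors deposited raw counts, 1 whole number for each Ensembl gene and library. The submitters' processing notes list Trimmomatic 0.36, STAR 2.7.10 and featureCounts 2.0.3, and both mm10 and GRCm39, without saying what each was used for. Strand setting and annotation release: not given in the sources used here. Columns were matched to the 6 libraries by name, and 0 per-sample columns were left unused. Symbols matched 51948 identifiers and 4993 had none. All pairs of libraries differed by more than sampling noise (chi-square per degree of freedom 4.28 to 12.9). Each group came from 3 mice, as the series' design text states. P-values of the main fit measure the spread between these samples. Those of the fit with no filter treat that spread as known exactly. Libraries held 30726110 to 38108394 counts, and precision for each gene follows from its own count.

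Genes were tested in R 4.3.3 with edgeR 4.0.16 (quasi-likelihood, robust fit). Scaling used TMM factors, low counts were removed by edgeR's default rule, and the model held the group alone. Adjustment was by Benjamini-Hochberg across 19354 genes, and the threshold 0.05. The F statistic gave the standard errors and 95% intervals, and the common dispersion a biological coefficient of variation of 0.0866. Spread and likeness used log2(CPM + 0.5). DESeq2 1.42.0 was an alternative. The fit was tested on simulated counts with known fold changes.

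The 10 genes and the 17 lists around them were chosen with earlier results of these data known. Named genes are the 10, Negr1, and from each list described the genes that passed or else those with the smallest p. Receptors of a described peptide were named too. Named outside that rule, after their values were seen, were Ttr, Prox1, Cpe, Pcsk2, Pomc, A830012C17Rik and the genes near 0 counts. The GABA and dentate scalings were also chosen after seeing the data. 1 sequence is not reported here.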

Additional observations from a re-analysis of the deposited data

How the results depend on the processing

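In 12 alternatives to the main fit (other scaling factors, DESeq2, other filters, the replicate block and each library left out), plus an adjusted p of 0.1, the number of the 10 neuropeptide genes called stayed at 0. Of 120 recomputed log2 fold changes of these genes 11 changed sign, in Sst, Tac2, Vip and Pnoc, whose main values lay between -0.075 and 0.062. Pnoc, at -0.0026, was at 0.0069 with upper quartile factors, 0.0025 with no filter, 0.0016 with a filter of 1 CPM in 3 libraries and 0.00645 with the replicate block. With 1 library left out, log2 fold changes were -0.13 to 0.0022 for Sst, -0.21 to -0.12 for Npy, -0.15 to -0.097 for Cck, -0.14 to -0.0017 for Penk, 0.29 to 0.63 for Pdyn, -0.24 to 0.22 for Tac2, -0.054 to 0.17 for Vip, 0.31 to 0.75 for Crh, -0.18 to -0.035 for Cort and -0.099 to 0.14 for Pnoc. The smallest adjusted p of any of the 10 was 0.0854, for Pdyn with no filter.

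Over all tested genes 9 were called, against 103 by DESeq2, 304 with no filter, 5 with the filter of 1 CPM in 3 libraries, 19 at an adjusted p of 0.1 and 2 to 63 with 1 library left out; the cause was not tested. The replicate block gave 26 calls, and the sample titles do not say whether the numbers pair the mice. The correlation of same-numbered libraries' deviations was 0.057, 0.023 and 0.049, and that of differently numbered libraries ran from -0.11 to 0.057. With so few libraries these values cannot decide on pairing. The depth limits Crh and Tac2 most, with 27 to 55 and 52 to 87 counts a library.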
